A study of Mus musculus with 10 samples.

Results

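Ligand genes of the tumour necrosis factor (TNF) superfamily, namely Tnf, Lta, Ltb, Cd40lg, Fasl, Tnfsf8 and Tnfsf11, were taken by name from the 45321 genes quantified by RNA-seq in mouse naive CD4+ T cells. All 7 were detected in each of the 10 libraries, with at least 40 estimated counts, and all 7 passed the filter on low counts, as did 14417 genes in total. The cells were CD4+CD62L+CD69- T cells sorted from C57BL/6 spleens, and they came in 4 groups. Stimulated cells had received 12.5 µM Compound 10, a chemical inhibitor of the NFAT:AP-1 complex (n = 3), or the vehicle DMSO (n = 2) for 1 h, followed by 10 nM phorbol ester (PMA) and 1 µM ionomycin for 2 h. Unstimulated cells had received 12.5 µM Compound 10 (n = 2) or DMSO (n = 3) as the 1 h pretreatment, without PMA and ionomycin. Time in culture and with Compound 10 may therefore differ between the states, and cannot be told apart from stimulation. PMA and ionomycin act downstream of the T cell receptor, through protein kinase C and calcium. Whether replicate libraries stem from different mice or cultures is not in the labels. All p-values then measure only the spread between these libraries, which may be technical.

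TNF superfamily ligands are made mostly as trimeric type II membrane proteins, and several are also shed from the cell surface. They signal to neighbouring cells through receptors that recruit TRAF adaptors or, for receptors with a death domain, caspases. Activated CD4+ T cells are a known source of several of them, and calcium-dependent NFAT, AP-1 and NF-kB factors are known regulators of their genes. Tnf encodes the inflammatory cytokine TNF, Lta encodes the secreted lymphotoxin alpha, and Ltb encodes the membrane subunit that holds lymphotoxin alpha at the surface as a ligand for the lymphotoxin beta receptor. Cd40lg encodes the CD40 ligand that gives help to B cells and dendritic cells. Fasl encodes the ligand of the death receptor Fas, Tnfsf8 encodes the ligand of CD30, and Tnfsf11 encodes RANKL, the ligand of RANK.

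Library totals ran between 10694591 and 33486259 estimated counts, and levels are given as CPM (counts scaled to a common library size). Scaling factors of the trimmed mean of M-values (TMM) were 0.731 to 0.850 with stimulation and 1.199 to 1.34 without it, so comparisons across stimulation rest on this scaling more than those within a state. Over the 8 pairs of libraries within a group, the chi-square statistic per degree of freedom was at least 14.8, so no pair agreed within sampling noise and each library counted once. All 10 listed T cell markers were above 1 CPM in each group. The summed B cell markers lay between 4.0 and 8.88 CPM over all libraries, and the natural killer markers between 0.274 and 7.44 CPM, with Ncr1 and Klra8 at 0 in all 4 groups. The 8 myeloid markers, of which 1 (Cd68) was above 1 CPM in each group, summed to 2.39 to 5.64 CPM with Compound 10 and 5.92 to 8.92 CPM under vehicle in stimulated cells, and to 8.11 to 9.67 CPM with Compound 10 and 13.8 to 25.4 CPM under vehicle in unstimulated cells. Bulk values cannot tell apart fewer cells of a type from less RNA per cell.

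Tnf, Lta and Ltb lie side by side on mouse chromosome 17 (mm10, GENCODE M21). Ltb occupies 17:35194439-35196320 on the plus strand, Tnf 17:35199381-35202007 on the minus strand and Lta 17:35203165-35205351 on the minus strand. The gap between Ltb and Tnf is 3060 bases and that between Tnf and Lta is 1157 bases. The other genes lie apart, Cd40lg at X:57212143-57224042 (plus), Fasl at 1:161780689-161788495 (minus), Tnfsf8 at 4:63831308-63861347 (minus) and Tnfsf11 at 14:78277445-78308043 (minus). Annotated microRNA genes overlap Lta (Mir6974) and Ltb (Mir6973a) on the same strand.

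The promoters of Tnf, Lta and Ltb are shown because, of these neighbours, 1 was called higher, 1 lower and 1 was not called with Compound 10 in stimulated cells, and that of Fasl because it was called lower there, as Ltb was. Each is the sequence upstream of the gene, 5′ to 3′ on the gene's own strand, from RefSeq (GRCm38.p6). The coordinates are chr17:35202008-35202257 (minus) for Tnf, chr17:35205352-35205601 (minus) for Lta, chr17:35194257-35194438 (plus) for Ltb and chr1:161788496-161788745 (minus) for Fasl. Capitals mark GGAAA, the core bound by NFAT factors, in either orientation (TTTCC on the opposite strand), and in Ltb also the NF-kB motif GGGNNTTTCC, which overlaps GGAAA on the other strand.
Tnf: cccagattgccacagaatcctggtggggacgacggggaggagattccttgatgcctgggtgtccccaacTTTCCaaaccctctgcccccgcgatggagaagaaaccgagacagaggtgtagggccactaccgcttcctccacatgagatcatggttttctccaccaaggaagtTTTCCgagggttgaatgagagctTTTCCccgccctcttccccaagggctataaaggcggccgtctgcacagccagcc
Lta: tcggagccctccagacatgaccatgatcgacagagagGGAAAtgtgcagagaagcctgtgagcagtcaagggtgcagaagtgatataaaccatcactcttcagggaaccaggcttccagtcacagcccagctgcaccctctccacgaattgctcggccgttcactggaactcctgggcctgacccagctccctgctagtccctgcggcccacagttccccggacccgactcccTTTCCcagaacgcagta
Ltb: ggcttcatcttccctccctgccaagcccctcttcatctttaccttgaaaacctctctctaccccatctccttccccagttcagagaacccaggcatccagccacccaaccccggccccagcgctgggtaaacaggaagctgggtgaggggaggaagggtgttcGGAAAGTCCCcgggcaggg
Fasl: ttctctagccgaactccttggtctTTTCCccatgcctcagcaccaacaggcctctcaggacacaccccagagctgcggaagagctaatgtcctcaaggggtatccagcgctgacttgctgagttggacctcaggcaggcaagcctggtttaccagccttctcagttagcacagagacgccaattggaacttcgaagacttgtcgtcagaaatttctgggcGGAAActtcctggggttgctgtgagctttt

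Promoters were on record for 6 of the 7 genes, all but Cd40lg, and each of the 6 held GGAAA on 1 strand or the other, against 55.6% of 32851 promoters of 250 bases. In the Tnf promoter the motif began 181, 77 and 54 bases before the RefSeq start, read from the left end as printed. The AP-1 motif TGANTCA, searched on both strands, was in none of the 6 windows, against 6.75% of all promoters. GGGNNTTTCC was in the window of Ltb only among the 6, against 1.41% of all promoters. TATAAA on the gene's strand was in the windows of Tnf and Lta, against 7.59% of all promoters. A match describes these letters only, and their absence from a window says nothing about the factor.

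Per transcript length, in the deposited TPM (a length-scaled share of each library's transcripts), the order of the ligands differed between the groups. In stimulated cells with Compound 10, Tnf led with 5331 ± 513 TPM, ahead of Cd40lg with 3074 ± 115 TPM (SD, n = 3), whereas under vehicle Cd40lg led with 4891 ± 499 TPM, ahead of Tnf with 2611 ± 269 TPM (SD, n = 2). In either case the libraries of the leading gene did not overlap those of the next. Among all 45321 genes, Tnf ranked 19 to 24 with Compound 10 and 50 to 62 under vehicle, and Cd40lg ranked 46 to 56 with Compound 10 and 21 to 27 under vehicle. In unstimulated cells Ltb led in both groups, with 310 to 382 TPM with Compound 10 and 430 to 722 TPM under vehicle.

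The TPM ratio of Tnf to Cd40lg, taken within each library, was 1.94, 1.53 and 1.74 in stimulated cells with Compound 10, against 0.534 and 0.533 under vehicle. In unstimulated cells it was 1.65 and 2.44 with Compound 10, against 0.523, 0.625 and 0.627 under vehicle. The ratio was thus above 1 in all 5 Compound 10 libraries and below 1 in all 5 vehicle libraries, whatever the stimulation. The ratio of Tnf to Ltb was 29.7, 21.7 and 17.5 in stimulated cells with Compound 10, against 4.55 and 3.41 under vehicle. Tnf over Lta was 65.6, 67.3 and 54.6 with Compound 10 and 40.9 and 39.0 under vehicle in stimulated cells.

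Summed over the 7 genes, stimulated cells held 8530 to 9336 TPM with Compound 10 and 7892 to 8926 TPM under vehicle, and these ranges overlapped. The make-up of the sum differed. Tnf made up 57.6% to 63.2% with Compound 10 and 30.7% to 31.4% under vehicle, Cd40lg 32.6% to 37.5% and 57.5% to 58.8%, and Ltb 2.13% to 3.43% and 6.89% to 8.99%. In unstimulated cells the sum was 445 to 494 TPM with Compound 10 and 614 to 803 TPM under vehicle, without overlap, and Ltb made up 69.6% to 77.4% and 70.1% to 90.0% of it.

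**Figure D1:**
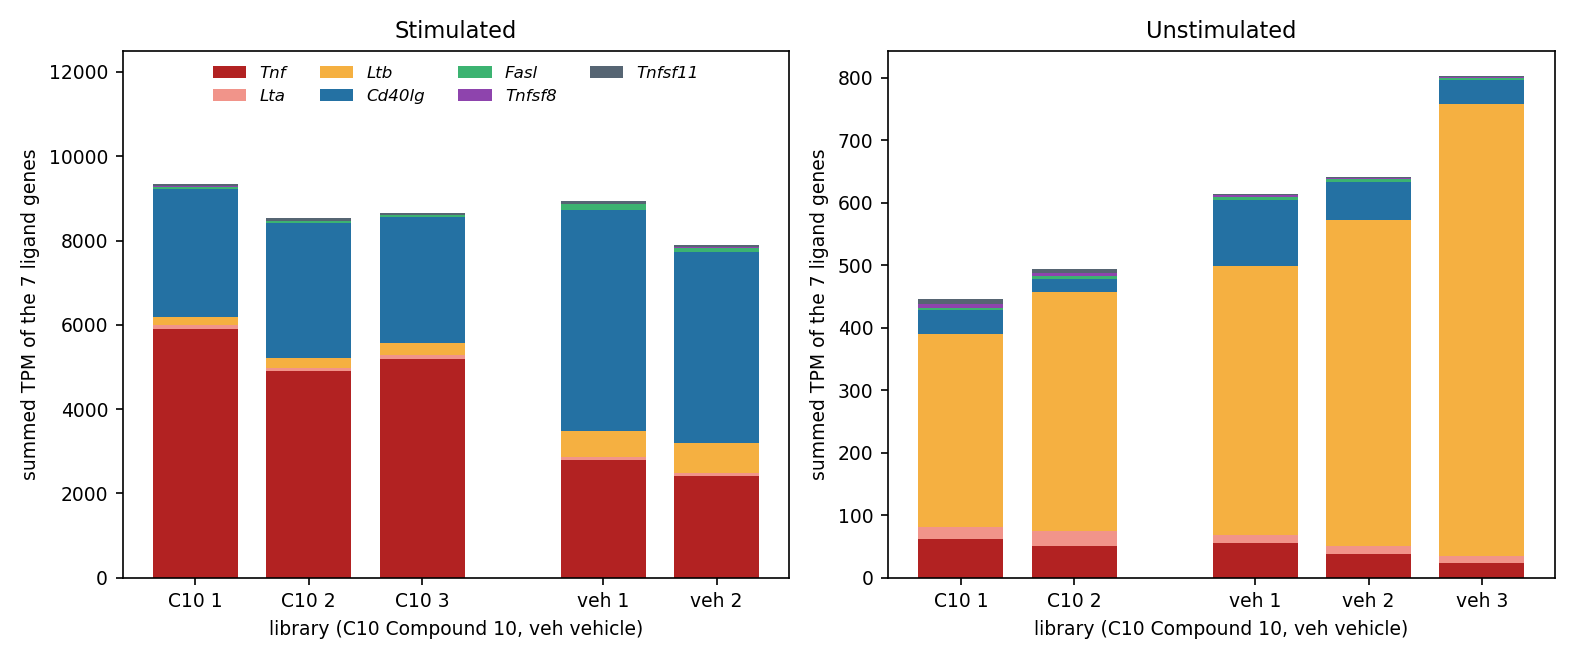
Summed TPM of the 7 ligand genes in each library, stacked by gene, for stimulated and unstimulated cells with Compound 10 or vehicle. The stimulated sums overlap (8530 to 9336 TPM with Compound 10 and 7892 to 8926 TPM under vehicle) while Tnf and Cd40lg change places as the leading gene.

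Compound 10 was first set against vehicle in stimulated cells, which asks what an NFAT:AP-1 inhibitor changes while the ligand genes are being induced. One ligand gene rose and 2 fell. Tnf, the gene of the inflammatory cytokine, was higher by 0.94 ± 0.26 on the log2 scale (1.92-fold), and Ltb and Fasl were lower, by -1.52 ± 0.27 (2.87-fold lower) and -1.24 ± 0.18 (2.36-fold lower; log2 fold change ± SE). The 3 called genes compare with 23.2% of all 14417 tested genes called in this comparison, 10.4% higher and 12.8% lower, at a Benjamini-Hochberg adjusted p under 0.05 in edgeR's quasi-likelihood test. The median log2 fold change was -0.65 over the 7 genes and 0.04 over all tested genes. The libraries of the 2 groups did not overlap for 5 of the 7 genes, against 54.6% of all tested genes.

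Tnf stood at 8424, 6381 and 7530 CPM in the 3 stimulated Compound 10 libraries, against 4237 and 3511 CPM in the 2 vehicle libraries. The groups did not overlap, and the lowest Compound 10 library was above the higher vehicle library. The adjusted p was 0.0199 (edgeR's quasi-likelihood test, Benjamini-Hochberg). The call was lost without vehicle library 1 (1.08, adjusted p = 0.0785), without vehicle library 2 (0.82, adjusted p = 0.157) and without Compound 10 library 1 (0.84, adjusted p = 0.0675). Within the 2 runs of library numbers that held both groups, the log2 CPM difference was 0.99 and 0.86.

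Lta, the gene next to Tnf, stood at 105, 77.9 and 113 CPM with Compound 10, against 85.5 and 74.0 CPM under vehicle, and these libraries overlapped. Its log2 fold change was 0.31 ± 0.20 and did not pass the test (adjusted p = 0.311). Ltb, on the other side of Tnf, stood at 183, 185 and 274 CPM with Compound 10, against 588 and 640 CPM under vehicle. All 3 Compound 10 libraries were below both vehicle libraries (adjusted p = 0.00232), and the difference was -1.68 and -1.79 within the runs of library numbers. At this locus Compound 10 was accompanied by a higher Tnf, a lower Ltb and an Lta that was not called.

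Cd40lg stood at 3164, 3034 and 3155 CPM with Compound 10, against 5799 and 4796 CPM under vehicle. No library overlapped, but the log2 fold change of -0.77 ± 0.31 did not pass the test (adjusted p = 0.0938). The adjusted p ran between 0.00074 and 0.376 over 21 alternative settings, 4 of which called the gene lower. Fasl stood at 74.3, 61.9 and 78.1 CPM with Compound 10, against 191 and 146 CPM under vehicle, without overlap (adjusted p = 0.000592). It was called lower under all 21 alternatives, as was Ltb.

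Tnfsf8 stood at 29.3, 44.2 and 30.9 CPM with Compound 10, against 46.9 and 62.2 CPM under vehicle. Its groups did not overlap, by a narrow margin, and its log2 fold change of -0.65 ± 0.24 did not pass the test (adjusted p = 0.0725). Tnfsf11 stood at 106, 110 and 92.0 CPM with Compound 10, against 127 and 96.5 CPM under vehicle. These libraries overlapped, and the log2 fold change was -0.12 ± 0.19 (adjusted p = 0.693).

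**Figure D2:**
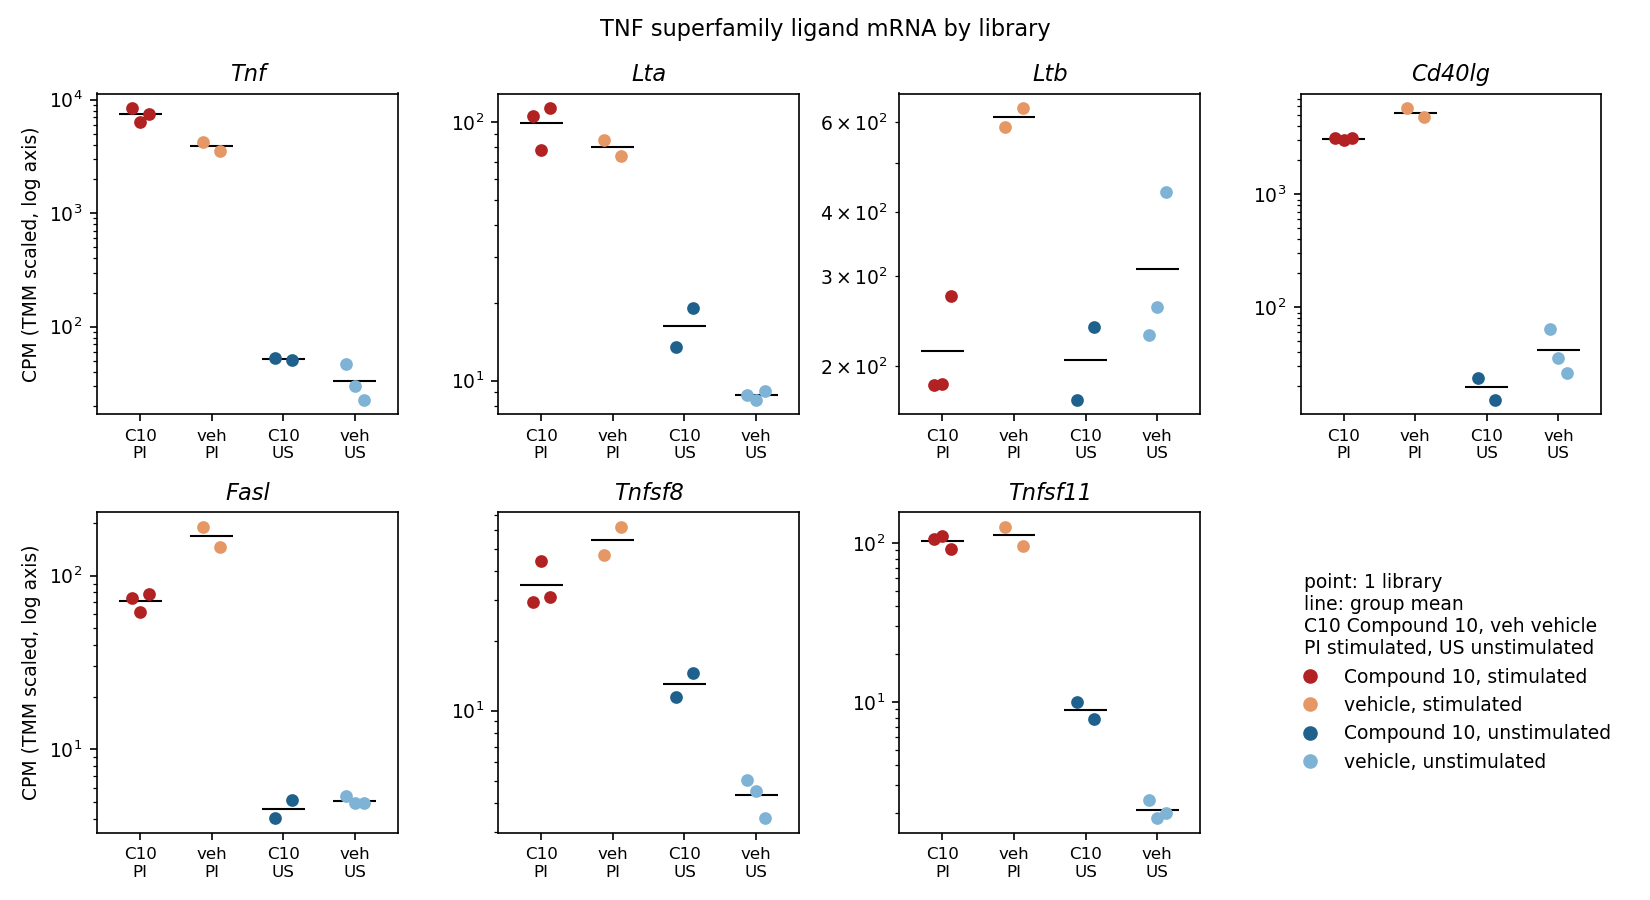
Level of each ligand gene in CPM on a log axis, 1 panel per gene, with 1 point per library and a bar at the group mean. Stimulated cells stand left of unstimulated cells and Compound 10 left of vehicle. Tnf is highest with Compound 10, Ltb and Fasl are highest in stimulated vehicle cells, and Tnfsf8 and Tnfsf11 separate Compound 10 from vehicle mainly in unstimulated cells.

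Marker lists of other cells and T cell states moved with these groups. In stimulated cells the 9 memory or effector markers summed to 77.7 to 106 CPM with Compound 10 and 196 to 207 CPM under vehicle, with 5 of 9 above 1 CPM in each group and S100a4 at 0 in both. Most of this sum was Il2rb, at 60.4 CPM with Compound 10 and 162 CPM under vehicle, while Cxcr3 (2.28 CPM with Compound 10 and 1.14 CPM under vehicle) and Ccr2 (3.25 CPM with Compound 10 and 1.19 CPM under vehicle) lay the other way. The 4 regulatory T cell markers, all above 1 CPM, summed to 50.4 to 80.8 CPM with Compound 10 and 173 to 212 CPM under vehicle. Most of the sum was Il2ra, itself an activation gene (40.3 CPM with Compound 10 and 168 CPM under vehicle). Foxp3 (3.34 and 5.80 CPM) and Ikzf2 (4.97 and 5.78 CPM) were also lower with Compound 10, while Ctla4 lay the other way (15.6 and 13.2 CPM). The T cell markers summed to 3284 to 3651 CPM with Compound 10 and 3883 to 4057 CPM under vehicle. This lower sum came mainly from Trac, at 832 CPM with Compound 10 and 1344 CPM under vehicle. Cd3d, Cd3e, Cd3g, Cd4, Lck and Cd28 lay the other way. The naive T cell markers summed to 1702 to 1904 CPM with Compound 10 and 1410 to 1453 CPM under vehicle. Natural killer markers summed to 1.46 to 3.54 CPM with Compound 10 and 3.86 to 7.44 CPM under vehicle. Most of this was Eomes, at 1.81 CPM with Compound 10 and 5.57 CPM under vehicle. Klrb1c, Gzma and Klre1, each under 1 CPM, lay the other way. The 2 CD8 T cell markers summed to 2.54 to 7.20 CPM with Compound 10 and 10.47 to 10.56 CPM under vehicle. Cd8b1 made up most of that sum (5.02 CPM with Compound 10 and 10.43 CPM under vehicle). Cd8a stood at 0.088 CPM with Compound 10 and 0.087 CPM under vehicle. Their part in the differences of Tnf, Ltb and Fasl was not tested.

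In unstimulated cells the comparison asks what Compound 10 changes before the ligand genes are induced. Tnfsf11, the RANKL gene, rose 4.24-fold, Tnfsf8, the CD30 ligand gene, rose 3.04-fold and Lta rose 1.86-fold. None of the 7 was called lower in this fit, whereas with the runs of library numbers as a factor Ltb (-0.70, adjusted p = 0.0038) and Cd40lg (-0.89, adjusted p = 0.0309) were called lower and Tnf (0.86, adjusted p = 0.00753) higher. The 3 called genes compare with 8.43% of all tested genes called in this comparison, 4.65% higher and 3.78% lower, in the same edgeR test. The median log2 fold change was 0.66 over the 7 genes and 0.002 over all tested genes. The groups did not overlap for 5 of the 7 genes, against 37.9% of all tested genes.

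Tnfsf11 stood at 10.0 and 7.78 CPM in the 2 unstimulated Compound 10 libraries, against 2.41, 1.86 and 2.01 CPM in the 3 vehicle libraries. Both Compound 10 libraries were above every vehicle library, and the vehicle values rested on 40 to 70 counts per library. The log2 fold change was 2.08 ± 0.21 (adjusted p = 0.000363), and it was called higher under all 21 alternatives. Tnfsf8 stood at 11.5 and 14.6 CPM with Compound 10, against 5.04, 4.52 and 3.44 CPM under vehicle, without overlap. Its log2 fold change was 1.60 ± 0.25 (adjusted p = 0.00477), and the adjusted p was 0.0513 when the unstimulated libraries were fitted alone. Within the runs of library numbers the difference was 2.36 and 1.90 for Tnfsf11 and 1.33 and 2.05 for Tnfsf8.

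Lta stood at 13.5 and 19.1 CPM with Compound 10, against 8.82, 8.44 and 9.15 CPM under vehicle. Both Compound 10 libraries were above all vehicle libraries, with a log2 fold change of 0.90 ± 0.21 (adjusted p = 0.0249). The call was lost without vehicle library 1 (adjusted p = 0.0614), without vehicle library 2 (adjusted p = 0.0711), without Compound 10 library 2 (0.63, adjusted p = 0.22) and with the unstimulated libraries fitted alone (adjusted p = 0.0973).

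Tnf stood at 53.3 and 50.9 CPM with Compound 10, against 46.6, 30.1 and 22.8 CPM under vehicle. The groups did not overlap, but the vehicle libraries were spread over more than the gap between the groups, and the log2 fold change of 0.66 ± 0.25 did not pass the test (adjusted p = 0.134). Cd40lg stood at 23.95 and 15.2 CPM with Compound 10, against 65.0, 35.6 and 26.4 CPM under vehicle. It did not overlap either, with a log2 fold change of -1.12 ± 0.33 that fell short of the threshold (adjusted p = 0.0587). Ltb stood at 172 and 238 CPM with Compound 10, against 230, 261 and 438 CPM under vehicle, with overlap and a log2 fold change of -0.59 ± 0.28 (adjusted p = 0.23). Fasl stood at 4.02 and 5.12 CPM with Compound 10, against 5.37, 4.89 and 4.93 CPM under vehicle, and its log2 fold change was -0.13 ± 0.20 (adjusted p = 0.754). Within the runs of library numbers the differences were 0.82 and 1.16 for Tnf, 0.68 and 1.05 for Lta, -0.57 and -0.79 for Cd40lg, -0.60 and -0.88 for Ltb and -0.28 and 0.05 for Fasl.

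The memory or effector markers summed to 51.4 to 63.5 CPM with Compound 10 and 14.5 to 23.0 CPM under vehicle in unstimulated cells. Of the 9, 3 were above 1 CPM with Compound 10 and 2 under vehicle, Ccr6 was at 0 in both groups, and S100a4 was also at 0 under vehicle. Most of the sum was Il2rb (41.6 CPM with Compound 10 and 12.4 CPM under vehicle) and Cd44 (13.2 CPM with Compound 10 and 4.95 CPM under vehicle). Tbx21 and Cxcr3, both under 1 CPM, lay the other way. The naive T cell markers summed to 1730 to 1928 CPM with Compound 10 and 1625 to 1806 CPM under vehicle, which overlap. The T cell markers summed to 2111 to 2449 CPM with Compound 10 and 1587 to 1672 CPM under vehicle. This higher sum came mainly from Cd6 (263 CPM with Compound 10 and 105 CPM under vehicle), Cd28 (227 and 95.5 CPM) and Cd5 (160 and 46.0 CPM). Zap70 lay the other way (140 CPM with Compound 10 and 144 CPM under vehicle). Their part in the higher Tnfsf11, Tnfsf8 and Lta was not tested.

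Stimulation was then set against no stimulation, separately with Compound 10 and under vehicle. These comparisons share libraries with those above, so their values stand side by side only. With Compound 10, 6 of the 7 genes rose, all but Ltb, against 26.5% of all tested genes called and 12.8% of all tested genes called higher. Under vehicle all 7 rose, against 39.0% of all tested genes called and 19.5% called higher. The median log2 fold change of the 7 genes was 3.54 with Compound 10 and 5.06 under vehicle, beside -0.014 and -0.055 over all tested genes. No library overlapped for 6 genes with Compound 10 and for 7 under vehicle, against 50.4% and 62.5% of all tested genes.

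Tnf and Cd40lg had the largest increases of the 7 genes in both comparisons. Tnf rose by 7.16 ± 0.35 (adjusted p = 3.16e-07) with Compound 10 and by 6.87 ± 0.29 (adjusted p = 3.61e-08) under vehicle on the log2 scale. Cd40lg rose by 7.32 ± 0.44 with Compound 10 and by 6.97 ± 0.37 under vehicle. Without scaling factors the increase was 6.56 with Compound 10 and 6.09 under vehicle for Tnf, and 6.73 with Compound 10 and 6.19 under vehicle for Cd40lg. Fasl rose 15.4-fold with Compound 10 and 33.2-fold under vehicle. Tnfsf11 rose 11.6-fold with Compound 10 and 53.5-fold under vehicle, and Lta rose 6.03-fold and 9.04-fold. Tnfsf8 rose 2.66-fold with Compound 10 (adjusted p = 0.00196) and 12.7-fold under vehicle (adjusted p = 1.06e-06). In TPM the Tnfsf8 call with Compound 10 was lost (0.72, adjusted p = 0.0728), and its value under vehicle was 2.38, against 3.66 in the count fit. Relative to the count fit, the log2 values of all 7 genes were lower without scaling factors and in TPM.

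Ltb, the most abundant ligand mRNA of unstimulated cells, was the exception. With Compound 10 its level in stimulated libraries overlapped that in unstimulated ones, and its log2 fold change was 0.06 ± 0.28 (adjusted p = 0.903). Under vehicle it rose by 0.99 ± 0.27 (adjusted p = 0.0137). That call was lost without scaling factors (0.22, adjusted p = 0.51), in TPM (0.28, adjusted p = 0.347), without stimulated vehicle library 1 (adjusted p = 0.0583) and without stimulated vehicle library 2 (adjusted p = 0.089).

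**Figure D3:**
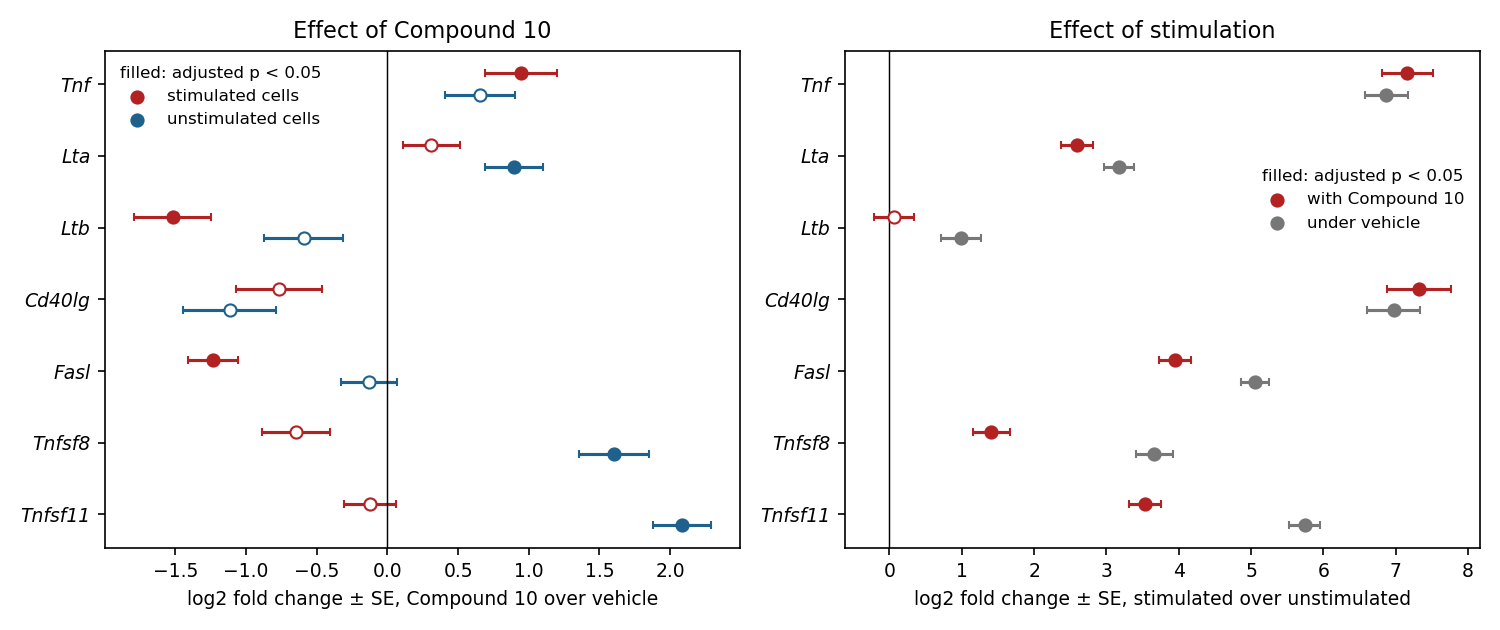
Log2 fold change ± SE of each ligand gene for Compound 10 over vehicle (left) and for stimulated over unstimulated cells (right). Filled points have an adjusted p under 0.05. Tnf, Ltb and Fasl are filled in stimulated cells, Lta, Tnfsf8 and Tnfsf11 in unstimulated cells, and stimulation is filled for each gene except Ltb with Compound 10.

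Whether the effect of Compound 10 differed between stimulated and unstimulated cells was tested by the interaction term, the log2 fold change in stimulated cells minus that in unstimulated cells. It was called for 3 of the 7 genes, all with a lower value in stimulated cells, against 6.63% of all tested genes called, 2.55% higher and 4.08% lower. The term was -2.25 ± 0.34 for Tnfsf8 (adjusted p = 0.00429), -2.20 ± 0.28 for Tnfsf11 (adjusted p = 0.00215) and -1.11 ± 0.27 for Fasl (adjusted p = 0.0319). Tnfsf8 and Tnfsf11 were higher with Compound 10 in unstimulated cells and had values of -0.65 and -0.12 in stimulated cells. Fasl was lower with Compound 10 in stimulated cells and had a value of -0.13 in unstimulated cells. The Fasl call was lost in 9 of 20 alternatives, with adjusted p up to 0.178. The Tnfsf8 call was lost in TPM (-1.65, adjusted p = 0.0589), and in TPM the Tnfsf11 term was -1.53.

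For Tnf the interaction term was 0.29 ± 0.36 (adjusted p = 0.701) and for Cd40lg 0.35 ± 0.44 (adjusted p = 0.709), so a difference between the cell states was not detected for the 2 most strongly induced ligands. Lta had a term of -0.59 ± 0.29 (adjusted p = 0.267), although it was called in unstimulated and not in stimulated cells. Ltb had a term of -0.93 ± 0.39 (adjusted p = 0.187). It was called under 4 of 20 alternatives, among them the one with the replicate number as a block and the one with the runs of library numbers as a factor.

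The order of the 4 groups by level differed between some of the genes. Tnf was highest in stimulated Compound 10 cells, then stimulated vehicle, unstimulated Compound 10 and unstimulated vehicle cells, with no overlap between neighbours. Lta kept the same order, with overlap between the 2 stimulated groups. Fasl, Cd40lg, Tnfsf8 and Tnfsf11 were highest in stimulated vehicle cells, followed by stimulated Compound 10 cells, and those 2 groups overlapped for Tnfsf11. The lowest group was unstimulated vehicle cells for Tnfsf8 and Tnfsf11 and unstimulated Compound 10 cells for Cd40lg and Fasl, with overlap for Fasl. Ltb was highest in stimulated vehicle cells, and its other 3 groups overlapped with their neighbours.

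The root mean square (RMS) difference of centred log2 CPM over the 10 libraries measured how alike the patterns were. Among the 7 genes, Lta and Tnfsf8 had the smallest difference, 0.57, and Tnf and Cd40lg had 0.87. Of 7448 candidate genes, Nfkbid was nearest to Tnf (0.652), Marcksl1 to Lta (0.207), Pfn1 to Ltb (0.141) and Egr3 to Cd40lg (0.51). Nab2 was nearest to Fasl (0.298), Grhl1 to Tnfsf8 (0.256) and Plaur to Tnfsf11 (0.414). Orai1, a calcium channel subunit, was almost as near to Lta (0.208). Genes with a small overall range reach small differences more easily, and all points share the same 10 libraries.

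At the transcript level, Ltb was spread over 3 annotated transcripts. Ltb-201 held 66.1% to 75% of its TPM in stimulated cells with Compound 10 and 65.8% to 70.1% under vehicle. The retained-intron transcript Ltb-202 held 6.5% to 8.1% with Compound 10 and 4.6% to 4.9% under vehicle. Fasl-202 held 0% to 18.7% of Fasl TPM in stimulated cells with Compound 10 and 16.4% to 18.7% under vehicle, and it was at 0 in all unstimulated libraries, where Fasl counts were low. Lta, Cd40lg, Tnfsf8 and Tnfsf11 each had a single transcript among those quantified, so no split could be seen for them. The splits given here, between transcripts that share sequence, are estimates of the quantifier and carry no error.

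Other genes of the ligand pathway were read from lists by role. Of 11 further ligands of the superfamily, 4 were tested and 1 was called in stimulated cells, beside 23.2% of all tested genes. It was Tnfsf14, which encodes LIGHT, with 2.13 ± 0.80 CPM with Compound 10 and 18.1 ± 1.72 CPM under vehicle (log2 fold change -3.07 ± 0.43, adjusted p = 0.000485). In unstimulated cells it stood at 0.31 ± 0.013 CPM with Compound 10 and 0.049 ± 0.047 CPM under vehicle. These levels rest on few counts, and the gene passed the count filter through its stimulated levels. Its higher call in unstimulated cells (2.70 ± 0.75, adjusted p = 0.0475) was therefore not read as a result. Nor was its interaction term (-5.78 ± 0.85, adjusted p = 0.00381). Among untested ligands, Tnfsf18 and Cd70 had 0 counts in every library, which in the smallest library allows up to 0.281 CPM (3 counts, counting error only). Of 9 receptors of the 7 ligands, 6 were tested and 1 was called, beside 23.2% of all tested genes. It was Cd40, the receptor of the CD40 ligand, higher by 1.89 ± 0.46 with Compound 10 (adjusted p = 0.0119) at 4.70 ± 1.17 CPM, against 1.27 ± 0.21 CPM under vehicle. Fas, the receptor of Fasl, had a log2 fold change of -0.27 in stimulated cells (adjusted p = 0.431) and rose by 0.86 in unstimulated cells (adjusted p = 0.0357). The TNF receptor gene Tnfrsf1b stood at 685 ± 67.4 CPM with Compound 10 and 790 ± 42.8 CPM under vehicle in stimulated cells (adjusted p = 0.631).

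None of 6 tested proteases and partners was called in stimulated cells. Adam17, which sheds TNF, had a log2 fold change of -0.33 ± 0.21 there (adjusted p = 0.298). Of 20 adaptors, kinases and caspases behind the receptors, 4 rose and 2 fell, beside 10.4% of all tested genes called higher and 12.8% called lower. Birc3, a ubiquitin ligase of the TNF receptor complex, rose by 1.15 ± 0.15 (adjusted p = 0.000315), and Traf6, an adaptor of CD40 and RANK, was lower at -0.90 ± 0.22 (adjusted p = 0.0123). The median log2 fold change was 0.11 over these 20 genes and 0.04 over all tested genes. The NF-kB feedback genes Tnfaip3 and Nfkbia had values of 0.034 and 0.055 and were not called (adjusted p = 0.957 and 0.849). In unstimulated cells Birc3 was also called higher (0.553 ± 0.141, adjusted p = 0.0353, same edgeR test), and Traf6 was not called (0.116, adjusted p = 0.813).

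Of 11 RNA-binding regulators that act on ligand mRNAs, 2 rose and 1 fell in stimulated cells, beside the same 10.4% and 12.8%. Zfp36, which encodes the TNF mRNA destabilising protein tristetraprolin, rose by 1.45 ± 0.23 (adjusted p = 0.00105). Zc3h12a, which encodes regnase-1, rose by 0.73 ± 0.20, and Zfp36l1 was lower at -1.23 ± 0.14 (adjusted p = 0.000192). Of 16 transcription factors of the activation pathway, 3 rose and 4 fell, beside 23.2% of all tested genes called in either direction. Egr1 rose by 2.56 ± 0.21 and Junb, an AP-1 subunit, by 1.20 ± 0.17, whereas Nfatc1 was lower at -1.42 ± 0.19 and Rela, an NF-kB subunit, at -1.23 ± 0.18. The NFAT genes did not move together, as Nfatc2 rose by 1.65 ± 0.36 and Nfatc3 was not called (-0.057 ± 0.184). In unstimulated cells each of these last 2 lists had 1 gene called higher and 1 called lower, beside 4.65% of all tested genes called higher and 3.78% called lower. Those called higher were Zfp36 (1.265 ± 0.215, adjusted p = 0.00692) and Junb (0.92 ± 0.158, adjusted p = 0.00708) in the same edgeR test. Tnf was not called there, and the Zfp36 interaction term was 0.187 ± 0.309 (adjusted p = 0.787).

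**Figure D4:**
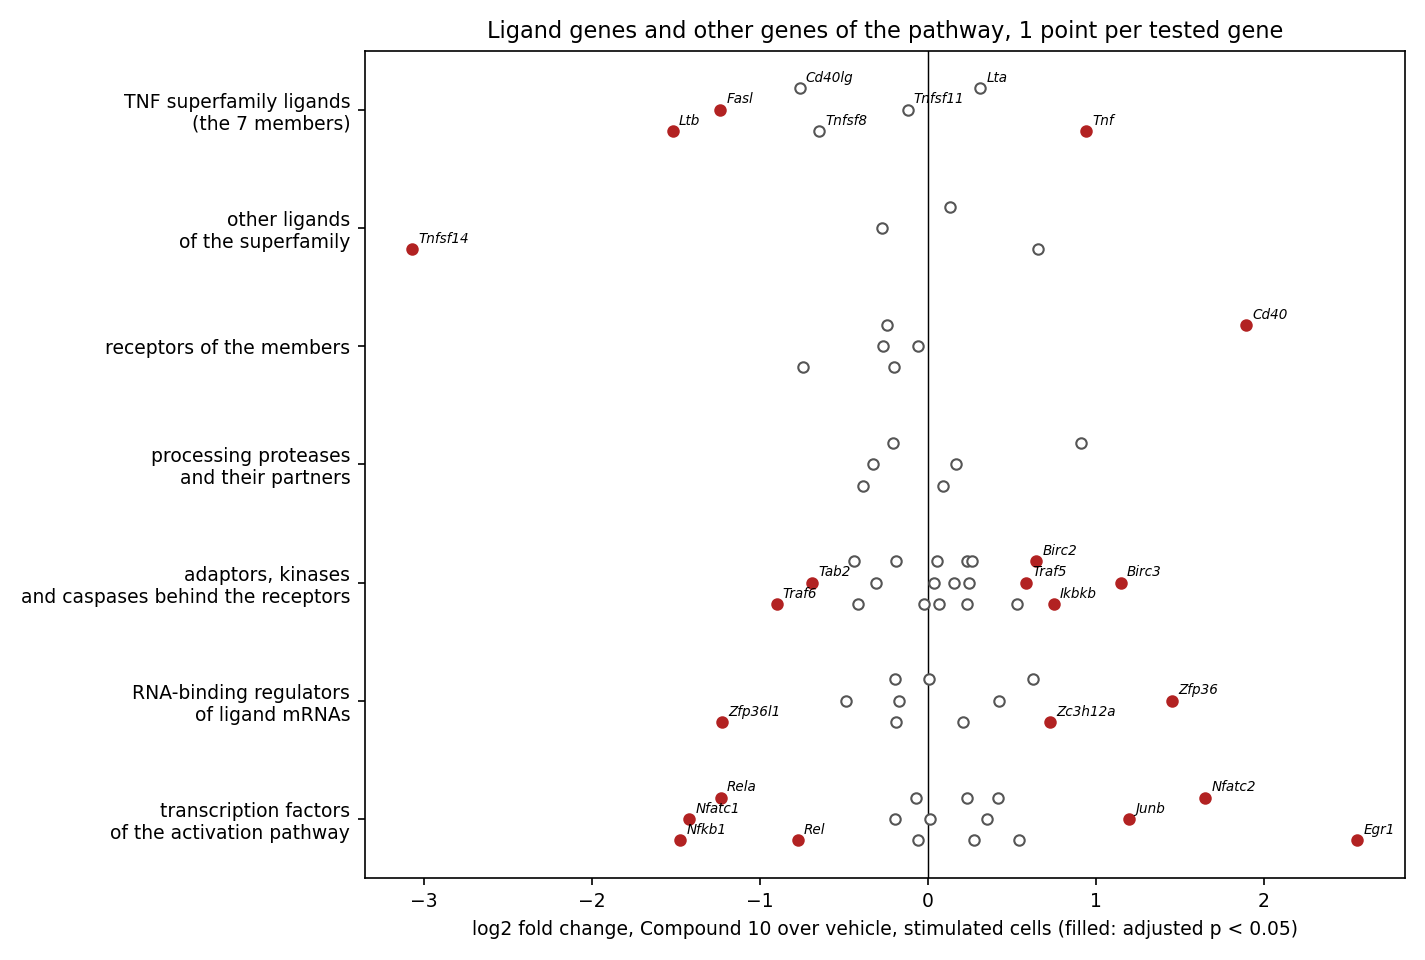
Log2 fold change of Compound 10 over vehicle in stimulated cells, with 1 point per tested gene in rows by role, and filled, named points for an adjusted p under 0.05. All 7 ligand genes are named. Called genes lie on both sides of 0 in the rows of the 7 ligands, the adaptors, the RNA-binding regulators and the transcription factors.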

How the data were processed

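RNA-seq of 10 libraries was analysed, made from total RNA with Clontech SMART-seq, per the labels' protocols, a kit that does not mark strand. Per the submitters' processing notes, cutadapt and kallisto (versions not given in the sources used here) and the mm10 build were used. The deposited files hold estimated counts and TPM per transcript, as the authors made them. Estimated counts were summed per gene over GENCODE M21 (108214 of 109617 transcripts matched, and the others held 0.507% to 0.671% of counts) and rounded to whole numbers. edgeR 4.0.16 (R 4.3.3) fitted all 10 libraries in 4 groups with TMM factors, its default filter (14417 genes) and the quasi-likelihood test, with Benjamini-Hochberg adjustment over all tested genes and calls at an adjusted p under 0.05. SEs were derived from the F statistic. CPM values use the TMM factors. limma 3.58.1, DESeq2 1.42.0, other scalings and filters, TPM with a pseudocount of 1, blocks and left-out libraries were alternatives. The analysis was tested on simulated data with 200 changed genes. Library numbers given by the submitters fall into 3 runs, 13 to 16, 19 to 22 and 25 to 29, whose meaning is not stated. Genes named outside the 7 were, per list of related genes, those with up to 4 of the smallest adjusted p, plus Tnfaip3 and Nfkbia. Nfatc2 and Nfatc3 were added beside Nfatc1. Nearest patterns came from tested genes with a mean log2 CPM of at least 3. The 7 genes and the lists were chosen with earlier results of these data known.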

Additional observations from a re-analysis of the deposited data

Results flagged for a closer look

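The effect of Compound 10 differed between stimulated and unstimulated cells for 3 of the 7 ligand genes by a direct test of the difference, the interaction term in edgeR's quasi-likelihood test (Benjamini-Hochberg adjusted). Of all tested genes, 6.63% were called by this test and 4.08% were called lower. The term was -1.11 for Fasl (adjusted p = 0.0319), -2.25 for Tnfsf8 (adjusted p = 0.00429) and -2.20 for Tnfsf11 (adjusted p = 0.00215). For Tnfsf8 the effect was -0.65 in stimulated cells and 1.60 in unstimulated cells, and for Tnfsf11 it was -0.12 in stimulated cells and 2.08 in unstimulated cells. The Tnfsf8 difference was not called in TPM (adjusted p = 0.0589). For Fasl it was -1.24 in stimulated cells and -0.13 in unstimulated cells, and this difference lost its call in 9 of 20 alternatives, with adjusted p up to 0.178.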

How the results depend on the processing

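Of 728 values of the 7 genes under alternatives, 670 kept direction and side of the threshold, 24 gained a call, 23 lost one and 11 changed sign. The sign changes were Tnfsf11 in stimulated cells with upper-quartile factors (0.012) and without stimulated vehicle replicate 1 (0.088), Fasl in unstimulated cells without unstimulated Compound 10 replicate 1 (0.016), Tnf (-0.063) and Cd40lg (-0.12) in the interaction without unstimulated vehicle replicate 1, and Ltb on stimulation with Compound 10, at -0.53 without scaling, -0.012 without a filter, -0.54 in TPM, -0.19 with the replicate block, and -0.16 each without unstimulated Compound 10 replicate 1 or stimulated Compound 10 replicate 3. Leaving out 1 library gave -0.298 to 0.088 for Tnfsf11, -0.322 to 0.016 for Fasl, -0.162 to 0.289 for Ltb, -0.063 to 0.503 for Tnf and -0.121 to 0.711 for Cd40lg in these comparisons. The cause was not tested, and none of them was called in the main analysis.

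Of the 7 genes, those called for Compound 10 in stimulated cells were 5 with those groups fitted alone. In unstimulated cells they were 6 without a filter, 6 with library-number runs as a block and 1 with those groups alone. In the interaction they were 1 in TPM and 5 with the runs. All genes called in stimulated cells were 4431 with those groups alone, against 3350 in the main fit. In unstimulated cells all genes called were 1215 in the main fit and 1800 without a filter. They were 1888 by DESeq2, 1828 by voom, 770 in TPM, 2403 with the runs and 122 with the unstimulated groups alone. On stimulation with Compound 10 they were 6029 without scaling, and in the interaction 1448 without a filter, 1671 by DESeq2, 412 in TPM, 1504 with the replicate block and 2167 with the runs. Leaving out 1 library at a time, where a lone remaining library is assumed to vary like the others, gave 1589 to 3919 genes in all and 2 to 5 of the 7 in stimulated cells, 325 to 1335 and 2 to 4 in unstimulated cells, 2347 to 4370 and 6 on stimulation with Compound 10, 3568 to 5769 and 6 to 7 on stimulation under vehicle, and 191 to 1332 and 2 to 4 in the interaction.

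The scaling moved the share of higher calls. It was 44.8% in stimulated cells and 57.8% with upper-quartile factors, 55.1% in unstimulated cells and 42.5% without scaling, 48.3% on stimulation with Compound 10 and 13.4% without scaling, 50.1% on stimulation under vehicle and 15.4% without scaling, and 38.5% in the interaction, against 50.9% with upper-quartile factors and 62.7% without scaling. Without scaling the median of all genes was 0.15, -0.074, -0.602, -0.829 and 0.185 in the same order of comparisons.

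Deviations from the group means were correlated between libraries of different groups. Same-numbered libraries had correlations of -0.279 to 0.331 over 13 pairs, 2 of them over 0.1, and 6 of 10 libraries correlated best with one of their own number. Libraries of the same run of library numbers had correlations of -0.052 to 0.464 over 12 pairs, 3 of them over 0.1, and 7 of 10 correlated best with one of their own run. In a group of 2 libraries the deviations mirror each other, so unstimulated vehicle library 1 had 0.331 and -0.331 with the 2 unstimulated Compound 10 libraries. The pairs are thus not separate checks, and they cannot settle whether libraries were paired. The labels give the numbers no further meaning. With the replicate block Cd40lg was called lower in unstimulated cells (adjusted p = 0.0155) and the Ltb interaction was called (-1.47, adjusted p = 0.00484). Depth limited Tnfsf11, Fasl and Tnfsf8 most, with 40 to 310, 63 to 204 and 92 to 581 counts in unstimulated libraries.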
